A study of Mus musculus with 6 samples.

Results

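Peaks in dense clusters are accessible regions of modest width and strength that lie among many others. They were chosen by position, width and score alone. The peak names refer to all samples, so both groups may have shaped positions, widths, scores and the number of neighbours. A peak was taken when it was narrower than 2000 bp, had an authors' score under 200, and had at least 6 other peak midpoints within 50 kb of its own midpoint on the same chromosome. Of 43020 peaks in the table, 12715 met the rule. They were measured by ATAC-seq, in which the transposase Tn5 cuts and tags open chromatin, so that reads pile up where DNA is accessible. The study compared 3 libraries of naive AKP mouse colon cancer organoids with 3 libraries of organoid lines from primary tumours. For the second group, AKP organoids were implanted orthotopically by colonoscopy in C57Bl6 mice with an intact immune system, tumours were grown out again as organoids, and passaging left cancer cells alone. Both groups carry the AKP genotype, which the labels give by its letters alone. The labels do not say whether libraries came from separate cultures or animals, so p-values measure the spread between these libraries, which may be partly technical. Implantation, growth in the mouse, outgrowth and passage are shared by the 3 lines, and their effects cannot be told apart.

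Open chromatin is unevenly spread along mammalian chromosomes. Groups of accessible regions at short distances include the promoters of neighbouring genes in gene-rich segments and sets of enhancers, distal sequences that raise transcription of a promoter in reach. Promoters tend to stay open in many cell types, whereas enhancers open and close with cell state, and in the gut epithelium dense enhancer groups are found near genes of cell identity. The table carries positions of the genome build mm9 and no gene names, and no annotation or genome of that build was used here. Clusters are therefore given by position, whether a peak is a promoter or an enhancer is not stated, and the labelled cell type could not be checked against marker genes.

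The dense peaks formed 1631 clusters, where a cluster is a chain of them with successive midpoints at most 50 kb apart. A cluster held a median of 7 peaks and at most 50, and 201 held 1. The median span was 53.3 kb and the longest 536 kb. Successive dense peaks lay a median of 6.59 kb apart, against 16.1 kb for successive peaks of the whole table, and a dense peak had a median of 8 others within 50 kb against 4 over all peaks. Their median width was 718 bp and their median score 24.4, against 746 bp and 21.8 over the table. Chromosomes differed in how much of their accessible chromatin was dense: 37.4% of the tested peaks of chromosome 11 met the rule, 37.3% on chromosome 19, 24.8% on chromosome 10 and 5.72% on chromosome X.

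Libraries held between 1185356 and 5987545 reads in peaks, the shallowest and the deepest both naive (replicates 1 and 2). The median dense peak held 16 reads in naive replicate 1 and 68 in naive replicate 2, against 15 and 58 over all peaks. In bulk material, fewer cells with an open region and less opening per cell cannot be told apart.

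Dense peaks took a larger share of the reads in the lines from primary tumours. Naive replicates 1, 2 and 3 had 27.5%, 26.6% and 27.1% of their reads in dense peaks, while primary tumour replicates 1, 2 and 3 had 28.7%, 28.2% and 28.3%. The groups did not overlap. The means were 27.1 ± 0.440% and 28.4 ± 0.269% (SD, n = 3 each), a difference of 1.35 percentage points (exact permutation test, 2-sided, p = 0.1, the smallest that 3 against 3 allows). Counting error was small beside this: the 95% Wilson interval in the shallowest library ran from 27.4% to 27.6%, and covers counting error only.

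Peak by peak, gains outnumbered losses among the dense peaks. Of the 12715, 11466 passed the filter on low counts and were tested. A peak is called at an adjusted p under 0.05 (edgeR's quasi-likelihood test, Benjamini-Hochberg over all tested peaks of the table). Of the tested dense peaks, 1030 (8.98%) rose and 662 (5.77%) fell in the primary tumour lines. Over all 36179 tested peaks 8.00% rose and 6.40% fell, so the share that moved was close to the background, 14.8% against 14.4%, and both shares differed from it by about a percentage point or less. The median log2 fold change was 0.07 in tested dense peaks and -0.01 in all tested peaks. Differences of at least 2-fold were found at 906 of the 11466 tested dense peaks called higher and 455 called lower, and of at least 4-fold at 298 and 70. Over all 36179 tested peaks, dense ones included, these counts were 2569 and 1610, and 899 and 365. Gains thus outnumbered losses at these sizes in the whole table too. The highest naive library lay under the lowest tumour library in 2030 tested dense peaks (17.7%, against 15.5% over all tested peaks) and the order was the opposite in 1590 (13.9%, against 15.3%). The count of losses rested most on single libraries. Without naive replicate 2, the deepest library, 497 rose and 231 fell, and 426 and 440 fell without primary tumour replicates 2 and 3.

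Gains became more frequent as peaks lay closer together, up to a point. Among narrow, low-score peaks with no other peak within 50 kb, 4.90% of tested peaks rose and 7.34% fell. With 3 to 5 others 8.33% rose and 6.31% fell, with 6 to 8 others 8.59% and 5.82%, and with 9 to 11 others 9.83% and 5.49%. In the densest surroundings, with 15 to 30 others, 7.69% of 221 tested peaks rose and 8.14% fell. Signal and passage through the filter moved in step with this order: the median signal was 10.7 CPM and 64.7% of peaks were tested where no other peak was near, against 16.1 CPM and 89.0% with 6 to 8 others. CPM are reads scaled to an equal library total, so that libraries can be compared. The part of signal and filter in the order was not tested. Both groups may have shaped the shared peak set, so the number of others may itself depend on the difference between them. That part was not tested either. The limit of 6 lies inside this slope. With 6 others 8.73% rose and 6.22% fell, and with 5 others, just outside the rule, 8.23% and 5.78%. At the width limit, 29 of 146 peaks less than 100 bp under it were called (19.9%), against 20 of 142 less than 100 bp over it (14.1%). At the score limit, 34 of 161 peaks up to 20 under it were called (21.1%), against 20 of 134 up to 20 over it (14.9%). These counts are small, the differences were not tested, and no step at the limits is read from them.

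**Figure D1:**
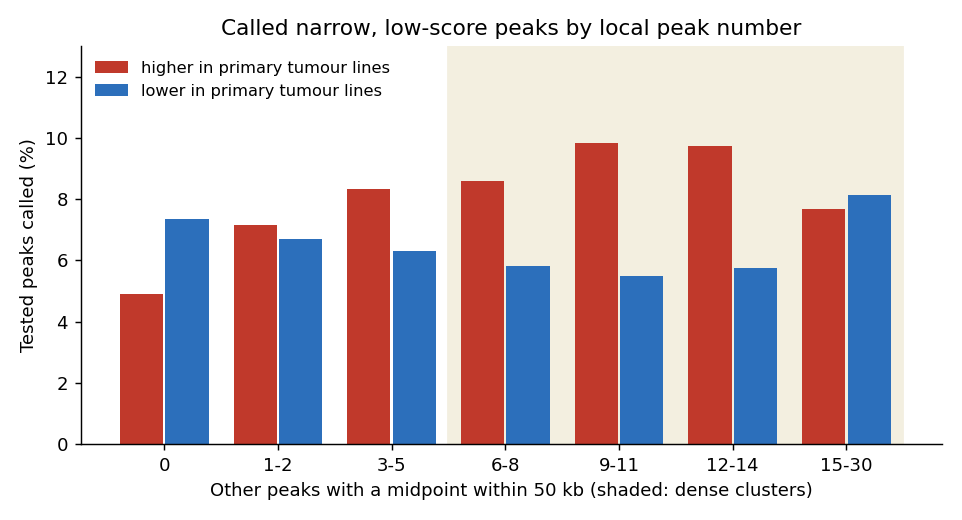
Share of tested narrow, low-score peaks called higher or lower in primary tumour lines (y axis, %) by the number of other peaks within 50 kb (x axis). The shaded bins make up the dense clusters, where 8.98% rose and 5.77% fell. Gains exceed losses in every bin from 1 to 2 others up to 12 to 14 others, and losses exceed gains in the first and the last bin.

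The balance of gains and losses differed with signal. All tested peaks were divided into 4 equal bins of mean CPM. In the weakest bin 5.41% of dense peaks rose and 1.38% fell. In the next bins the values were 9.11% and 3.77%, then 11.4% and 7.07%. In the strongest bin losses led, with 9.48% higher and 11.003% lower. Peaks of the same width and score limits outside dense clusters had 5.17% higher and 2.72% lower in the weakest bin and 5.32% higher and 10.8% lower in the strongest. In the bins between, they had 9.22% higher and 5.84% lower, then 10.0% and 9.18%. In the strongest bin, gains were thus listed at 9.48% of dense peaks and 5.32% of the others, and in the other bins the shares of gains were closer. This difference between sets of peaks was not tested. The median log2 fold change also fell with signal, in dense peaks from 0.26 over 0.18 and 0.06 to -0.12. In the other peaks it went from 0.14 over 0.10 and -0.07 to -0.19. A shift between libraries that follows signal would also move these shares, and its part was not tested. With offsets that follow signal strength, 1012 dense peaks rose and 663 fell, and the bins were not repeated.

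Single dense peaks could change far more than their surroundings. The 6 with the highest fold changes rose between 14.2-fold and 18.8-fold. On chromosome 6 (31098423 to 31099814) naive replicates 1, 2 and 3 had 11.2, 4.41 and 5.98 CPM, and primary tumour replicates 1, 2 and 3 had 162, 75.1 and 111 CPM. Its log2 fold change was 4.23 (SE 0.34, edgeR adjusted p = 5.16e-08). The 9 tested peaks within 50 kb, summed, had a log2 ratio of 0.78, and its cluster of 17 peaks, summed, had a log2 fold change of 0.17 (adjusted p = 0.457, edgeR). A peak that rose thus sat in a cluster whose sum was not called.

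The other 5 of these peaks also had fold changes far above those of their neighbours. They were chosen for the highest fold changes, so a gap to summed neighbours was largely set by the choice and tests nothing. On chromosome 17 (5195601 to 5196215) signal was 0.858, 0.367 and 3.84 CPM in naive libraries and 7.70, 25.4 and 38.4 CPM in the lines (log2 fold change 3.91, SE 0.72, edgeR adjusted p = 0.00112), while its 7 neighbours, summed, had a log2 ratio of -0.09. The lines were uneven here, with primary tumour replicate 1 low, and the log2 fold change was 5.50 without naive replicate 3 and 3.08 without naive replicate 2. On chromosome 9 (120650052 to 120650525) the lines were even, with 2.57, 1.29 and 2.56 CPM in naive libraries against 26.5, 32.3 and 28.9 CPM (log2 fold change 3.90, SE 0.46, edgeR adjusted p = 4.32e-06). Its 6 neighbours had 0.09. A peak on chromosome 19 (14694854 to 14695391, log2 fold change 4.20, or 5.02 without naive replicate 2) had neighbours at 0.07, one on chromosome 8 (26180289 to 26180570, 3.86) had neighbours at 0.63 and another on chromosome 6 (54978534 to 54979667, 3.83) had neighbours at 0.39. At the chromosome 19 peak naive replicates 1, 2 and 3 held 0, 8 and 2 reads. At the chromosome 8 peak they held 2, 6 and 2, so both fold changes rest on few naive reads.

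The 6 dense peaks with the lowest fold changes fell between 8.21-fold and 17.3-fold, and the summed neighbours of 5 of them had log2 ratios below 0. On chromosome 15 (54810824 to 54811340) signal was 35.2, 29.4 and 23.1 CPM in naive libraries and 1.14, 1.06 and 2.85 CPM in primary tumour lines, a log2 difference of -4.12 (SE 0.49, edgeR adjusted p = 4.32e-06), and its 5 neighbours had a log2 ratio of -0.79. On chromosome 13 (107832619 to 107833031) the fold change was -3.20 and that of 8 neighbours -1.37. Peaks on chromosome 8 (70575572 to 70576552, -3.19, or -3.80 without primary tumour replicate 3), chromosome 4 (117801634 to 117802025, -3.09, or -4.48 without primary tumour replicate 3) and chromosome 5 (91722102 to 91722626, -3.58, or -4.74 without primary tumour replicate 1) had neighbours at -0.78, -0.80 and -0.50. The exception was on chromosome 1 (99857017 to 99857441), where the peak had 12.01, 16.7 and 10.7 CPM in naive libraries and 1.71, 1.06 and 1.90 CPM in the lines (log2 fold change -3.04, SE 0.57, adjusted p = 7.03e-04). Its 5 neighbours had a log2 ratio of 0.31.

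Whole clusters also differed between the groups. Reads of the dense peaks of a cluster were summed and tested with edgeR beside every other peak of the table as a feature of its own. Of 1603 clusters tested, 195 (12.2%) rose and 114 (7.11%) fell, where 7.52% of all 26316 features rose and 6.53% fell. A cluster had a median summed signal of 129 CPM, against a median of 16.3 CPM for tested single peaks. The median log2 fold change was 0.96 in clusters that rose and -0.72 in clusters that fell, and 94 and 29 changed at least 2-fold. Of all tested clusters, 334 (20.8%) had every primary tumour library above every naive one and 272 (17.0%) below, against 14.9% and 16.1% of all features. With offsets that follow signal strength the split was 280 higher and 97 lower, 74.3% of calls higher in place of 63.1%. Without naive replicate 2 it was 132 and 53, and without primary tumour replicates 2 and 3 the clusters that fell were 70 and 73.

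The share of clusters that rose was between 10.7% and 12.6% at every size, and fold changes were smaller in large clusters, which also held more reads. Clusters of 1 to 3 dense peaks had 12.3% higher and 4.72% lower, those of 4 to 7 had 12.3% and 9.31%, those of 8 to 14 had 12.6% and 7.26%, and those of 15 to 50 had 10.7% and 6.31%. The median size of the log2 fold change was 0.40, 0.30, 0.24 and 0.19 in these classes, while the median summed signal was 26.9, 112, 205 and 449 CPM. Fold changes of sums with few reads scatter more, and the part of signal in this order was not tested. The highest log2 fold change was 3.13 in clusters of 1 to 3 peaks and 1.11 in clusters of at least 15, and the lowest were -2.16 and -0.92.

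**Figure D2:**
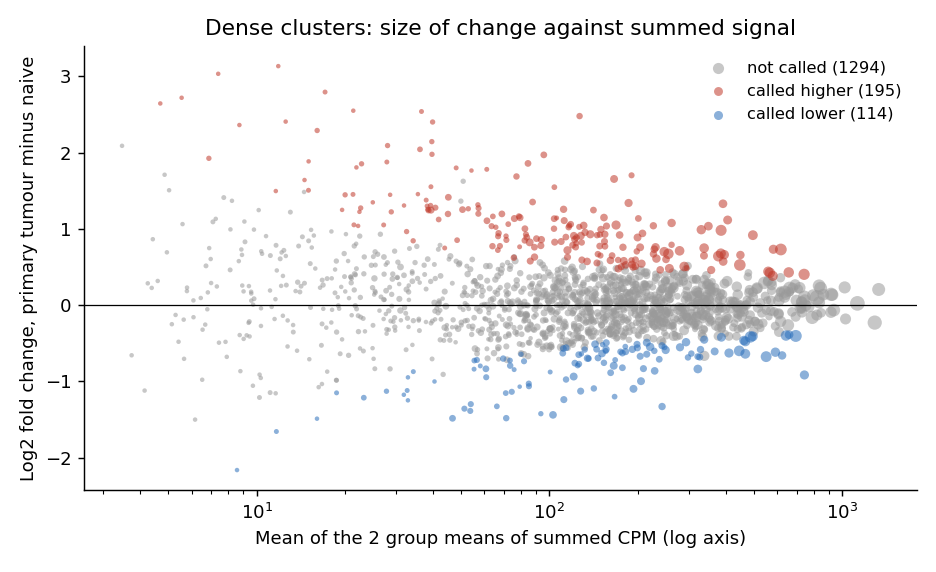
Log2 fold change of each of 1603 tested dense clusters (y axis, primary tumour minus naive) against its summed signal (x axis, CPM, log scale). Point area grows with the number of dense peaks, red and blue mark the 195 clusters called higher and the 114 called lower, and the clusters of at least 15 peaks lie between -0.92 and 1.11.

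The highest fold change among clusters of at least 4 peaks was on chromosome 11 (54014726 to 54038586), where all 6 dense peaks rose. Summed, they had 53.2, 26.3 and 41.0 CPM in the naive libraries, replicate 1 first, and 206, 232 and 203 CPM in the tumour lines (5.57-fold, log2 fold change 2.48, SE 0.22, edgeR adjusted p = 1.11e-07). Single peaks in it changed by log2 values from 1.85 to 3.003, over a span of 23.9 kb. The cluster on chromosome 9 (57947535 to 57988173) was similar, with 113, 83.0 and 75.6 CPM in naive libraries and 247, 341 and 286 CPM in the lines, and 4 of its 5 peaks rose. On chromosome 7 (151211749 to 151249020) 4 of 6 peaks rose, and signal went from 45.5, 18.9 and 49.1 CPM to 118, 143 and 88.2 CPM. Naive replicate 2 was low there. The log2 fold change of that cluster was 1.69, with 1.29 without naive replicate 2 and 1.98 without naive replicate 3. The rule for naming clusters required that the groups not overlap.

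The other 3 of the 6 highest clusters held called and uncalled peaks side by side. On chromosome 8 (26125444 to 26208955) the sum was 52.3, 31.8 and 35.9 CPM in naive libraries and 152, 189 and 113 CPM in the lines (log2 fold change 1.97, SE 0.23, edgeR adjusted p = 7.19e-06). Of its 7 dense peaks 6 were tested and 2 rose. These were neighbours, at 26177588 to 26179056 (log2 fold change 3.13) and at 26180289 to 26180570 (3.86), and the other 4 had values between 0.28 and 1.01. On chromosome 4 (137003959 to 137057239) 4 of 6 tested peaks rose, by log2 values from 2.07 to 2.45. The largest of the 6 highest clusters was on chromosome 17 (44594702 to 44725479), 131 kb long with 11 dense peaks. Its sum was 89.2, 64.5 and 89.3 CPM in naive libraries and 256, 265 and 234 CPM in the lines (log2 fold change 1.65, SE 0.18, adjusted p = 1.72e-06). In it 7 peaks rose, and 10 of 11 had a positive fold change. The exception had a log2 fold change of -0.70 and was not called.

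Clusters with the lowest fold changes were reduced 2.52-fold to 2.80-fold. On chromosome 1 (191745455 to 191784180) the sum was 96.9, 107 and 111 CPM in naive libraries and 35.1, 43.4 and 34.6 CPM in primary tumour lines, and the log2 fold change was -1.48 (SE 0.21, edgeR adjusted p = 5.85e-05). All 6 of its peaks had negative fold changes, and 4 fell. The one with the most signal was on chromosome 10 (60214972 to 60289019), with 415, 376 and 250 CPM in naive libraries and 103, 144 and 167 CPM in the lines (log2 fold change -1.33, SE 0.20, adjusted p = 1.15e-04). The 4 called peaks of its 9 were neighbours between 60253685 and 60262495, with log2 fold changes from -2.71 to -1.71. On chromosome 15 (54785498 to 54832660) 2 of 4 tested peaks fell, with log2 fold changes of -4.12 and -2.19. On chromosome 8 (70539955 to 70587006) 1 of 5 fell, with -3.19.

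Chromosome 13 held another 2 of the 6 lowest clusters. The larger (107788750 to 107854034, 10 dense peaks) had 170, 146 and 136 CPM in naive libraries and 61.0, 42.3 and 61.7 CPM in the lines, and 5 of 9 tested peaks fell. The smaller (40731213 to 40779499, 7 dense peaks) had 55.8, 62.8 and 88.0 CPM against 26.2, 17.5 and 29.9 CPM, and 1 of 4 tested peaks fell. In both, primary tumour replicate 2 was the lowest library. That library was low over dense peaks of the whole chromosome, with a median log2 ratio to the naive mean of -0.74, against -0.08 and -0.26 in replicates 1 and 3. With an offset for each library and 10 Mb window the larger cluster had a log2 fold change of -1.14 in place of -1.44, and the smaller -1.29 in place of -1.49. Without primary tumour replicate 2 they had -1.30 and -1.31 (adjusted p = 3.75e-04 and 0.00318, edgeR), so both calls held without the library. Over chromosome 13 as a whole 13.8% of 435 tested dense peaks fell and 5.75% rose. The chromosome with the highest share of gains was 16, where 14.9% of 382 rose and 6.81% fell, and the 3 lines had median log2 ratios of 0.34, 0.14 and 0.19. These shares cover dense peaks alone and were not set beside all tested peaks of the same chromosome. Whether they are particular to dense peaks was not tested.

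**Figure D3:**
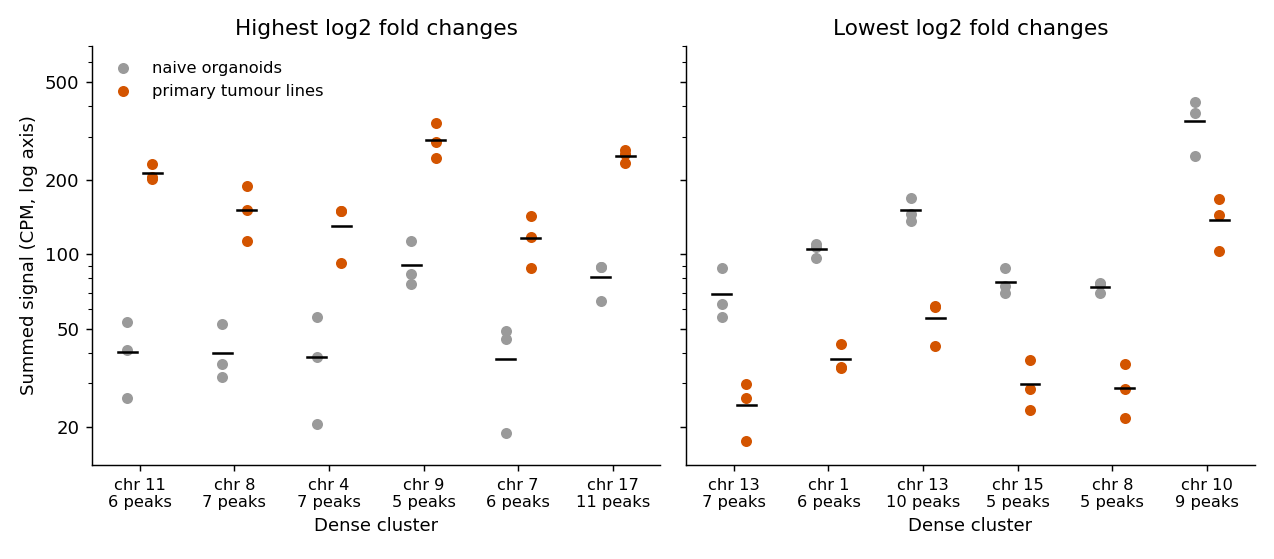
Summed signal of the dense peaks (y axis, CPM, log scale) in each library for the 6 clusters with the highest and the 6 with the lowest log2 fold change, labelled by chromosome and number of dense peaks. Points are libraries and bars are means of 3. The groups do not overlap in any of the 12, which the choice required.

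The 3 lines did not pass a 2-fold limit in equal number or at the same clusters. Among 1309 tested clusters with at least 100 reads on average, 60, 61 and 43 were at least 2-fold above the naive mean in primary tumour replicates 1, 2 and 3, and 28, 48 and 22 at least 2-fold below. For each naive library against the mean of the other 2, the numbers were 1, 0 and 1 above and 2, 9 and 0 below. Of 93 clusters past 2-fold higher in any line, 21 were so in all 3 lines and 43 in 1 line. Of 64 past 2-fold lower, 12 were so in all 3 and 42 in 1. None of the 1309 was at least 2-fold higher in 1 line and 2-fold lower in another. Primary tumour replicate 2, with 48 clusters below, had the fewest reads in peaks of the lines (1916819). It was also low over the dense peaks of chromosome 13 (median log2 ratio -0.74). Lines with similar values can fall on either side of a fixed limit, and the same counts over all features are not given here. The part of depth was not tested. The SD of log2 signal between lines had a median of 0.21 over tested clusters and that between naive libraries 0.17, and it was larger between the lines in 956 of 1603.

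Peaks that lay together tended to move together. For each tested dense peak, the signal of all other tested peaks within 50 kb was summed, a median of 7 peaks, and its log2 ratio between the groups was taken with 0.5 CPM added. The peak's fold change had the sign of its surroundings in 7113 of 11466 cases (62.0%). Across these peaks, which share libraries and neighbours and are not independent, Pearson's r was 0.39 and Spearman's rho 0.36. Among dense peaks called higher 75.0% agreed in sign, among those called lower 76.9% did, and among those not called 59.7%. Over all tested peaks with a neighbour, dense ones included, the share was 61.1% of 32549 (r = 0.38). The split by call was not made over all peaks, so it is not read as particular to dense peaks. Stronger peaks showed it somewhat more, with r = 0.43 in the strongest of the 4 signal bins and 0.34 in the weakest.

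Within a library, neighbouring peaks also departed together from the mean of its group. The correlation of a dense peak's deviation with that of its summed surroundings was 0.40 for the first tumour line, 0.31 for the second and 0.21 for the third. For the naive libraries, in the same order, it was 0.10, 0.15 and 0.17. Without chromosomes 4, 5, 13, 18 and 19, left out because earlier results of these data had single lines apart there, the values for the lines were 0.35, 0.25 and 0.19. With 3 libraries a group the deviations are tied to each other, depth differs between libraries, and no test was made.

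Shared direction faded with distance. Of successive tested dense peaks up to 2 kb apart, 64.8% had the same sign (662 pairs, r = 0.49), and of those 20 to 50 kb apart 58.5% (913 pairs, r = 0.22). In the whole table, where greater distances occur, the share was 55.7% at 50 to 100 kb, 51.7% at 200 to 500 kb and 51.4% at 500 to 2000 kb, where r was -0.001. Pairs in which both peaks were called were far more uniform. Of 148 such dense pairs up to 5 kb apart, 144 changed in the same direction (97.3%), of 92 pairs 5 to 10 kb apart 86 did (93.5%), and of 16 pairs 20 to 50 kb apart 12 did (75%). Over all pairs of the table, dense ones included, the shares at these distances were 97.0%, 94.4% and 81.9%, so the dense pairs were close to or under the table. At 500 to 2000 kb, 10 of 20 called pairs of the table had the same direction. Of dense pairs up to 2 kb apart in which any peak was called, both were called in 21.9%, and of those 20 to 50 kb apart in 7.62%, against 22.9% and 10.3% over all pairs.

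**Figure D4:**
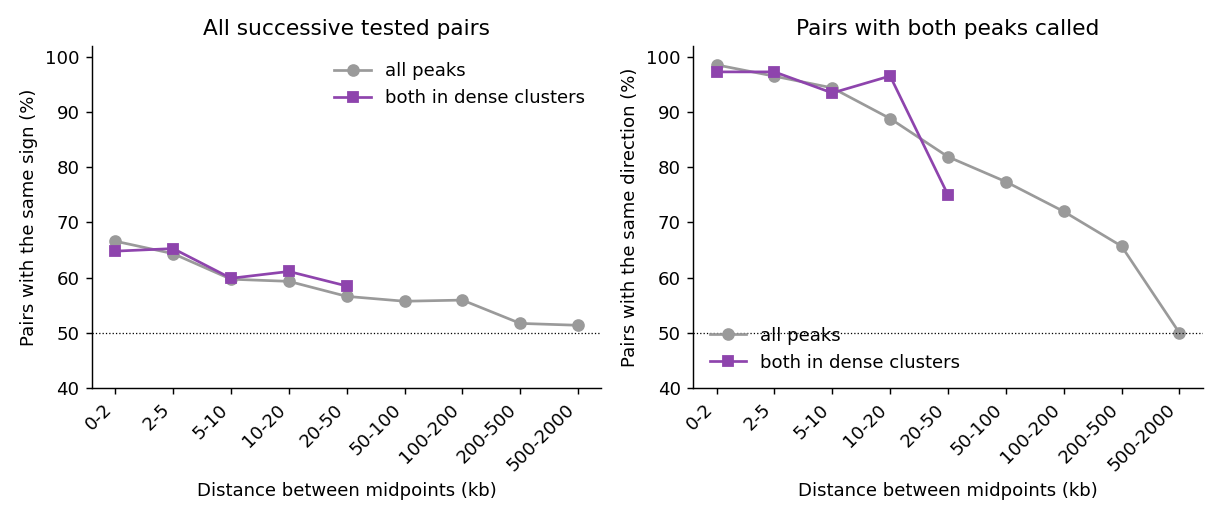
Share of successive tested peaks with log2 fold changes of the same sign (left) and, where both were called, of the same direction (right), in % on the y axis, by distance between midpoints in kb. Squares are pairs within dense clusters and circles all pairs of the table. Over the table both shares fall with distance. Called dense pairs are at 97.3% up to 2 kb apart, at 96.6% from 10 to 20 kb and at 75% from 20 to 50 kb. Over the table called pairs from 500 to 2000 kb apart are at 50%, the dotted line.

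Peaks of 1 cluster resembled each other to a modest degree. The intraclass correlation of the log2 fold change, the share of its variance that lies between clusters, was 0.21 over 1392 clusters with at least 2 tested peaks, and 0.17 after an offset for each library and 10 Mb window. In 871 clusters with at least 6 tested peaks, all fold changes were positive in 32, all were negative in 20 and both signs occurred in 819. Of 852 clusters with a called peak, 413 had gains alone, 296 losses alone and 143 both. A cluster with 1 call can have no other direction, and of the 418 with at least 2 calls, 275 had calls of 1 direction. With the replicate number as a block, clusters with both numbered 68. They numbered 28 and 91 without naive replicates 2 and 3, and 68 and 86 without primary tumour replicates 2 and 3.

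In the clusters whose sum was called, dense peaks shifted broadly. The 195 clusters that rose held 1318 tested dense peaks, of which 86.2% had a positive fold change, 456 were called higher and 3 lower. The 114 that fell held 815, of which 80.5% had a negative fold change, 242 were called lower and 5 higher. These are the peaks the sums were made of, so the counts describe the clusters and test nothing more. Of all 1692 called dense peaks, 986 lay in clusters whose sum was not called. In 13 clusters the sum was called although no single dense peak was.

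Wide or strong peaks, which the rule leaves out, lay between the dense peaks of 630 tested clusters. Their reads enter no cluster sum, so they are a separate measurement in the same libraries. The median fold change of these peaks had the sign of the cluster sum in 403 of 630 clusters (64.0%, r = 0.38 across clusters, which share libraries). In clusters that rose, 25 of 103 wide or strong peaks rose and 2 fell, and in clusters that fell, 12 of 63 fell and 1 rose. Among all 1434 peaks that had 6 or more others within 50 kb and were too wide or too strong for the rule, 9.27% rose and 6.21% fell, against 8.00% and 6.40% over all tested peaks. Their median signal was 75.3 CPM.

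Of clusters with 15 to 50 dense peaks, 10.7% rose and 6.31% fell. The 4 with the most dense peaks showed little net change, and none was called. The one with the most dense peaks, 50 within 291 kb on chromosome 8 (126039028 to 126330407), held a peak with 30 others within 50 kb, the most in the table. Its sum was 847, 703 and 833 CPM in naive libraries and 734, 930.3 and 883 CPM in primary tumour lines, and the groups overlapped (log2 fold change 0.10, SE 0.12, edgeR adjusted p = 0.685). It nevertheless held 3 peaks that rose, between 126276758 and 126293136, with log2 fold changes of 1.47, 2.36 and 1.44. Another tested dense peak between them, with 0.72, was not called. The peak with 30 others, at 126109966 to 126110421, had a log2 fold change of 0.87 and was not called (adjusted p = 0.245). The 4 peaks with 29 others, between 126104843 and 126117245, had 0.23, -0.26, 0.51 and -0.39, and none was called. On chromosome 11 (99928035 to 100302525) 38 dense peaks summed to 825, 927 and 863 CPM in naive libraries and 959, 1037 and 888 CPM in the lines (log2 fold change 0.14, SE 0.11, adjusted p = 0.476), and 3 of 34 tested peaks rose.

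Large clusters could hold called gains and called losses in separate stretches, with uncalled peaks of both signs among them. The clusters described here were chosen for their opposed calls. Uncalled peaks among the gains had log2 fold changes down to -0.80 on chromosome 4 (150179866 to 150180148) and -1.14 on chromosome 5 (64801796 to 64802228). The cluster on chromosome 4 (149845913 to 150381500, 47 dense peaks) had 4 peaks that fell and 4 that rose, and a sum of 1118 ± 49.97 CPM in naive organoids and 1135 ± 41.5 CPM in primary tumour lines (SD, n = 3 each). Its log2 fold change was 0.02 (SE 0.11, edgeR adjusted p = 0.933). The 4 that fell all lay between 149867287 and 150046111, with log2 fold changes of -0.88, -1.17, -2.62 and -1.39 in order of position. The 4 that rose all lay after them, between 150098888 and 150347954, with 1.21, 1.85, 0.81 and 1.20. On chromosome 5 (64587465 to 65043027, 44 dense peaks) the order was the other way round. There 5 peaks rose between 64660971 and 64830329 (2.04, 2.23, 1.76, 0.78 and 0.65) and 4 fell between 64891413 and 65029113 (-0.81, -0.93, -0.82 and -1.18), with sums of 1501, 1469 and 1211 CPM in naive libraries and 1011, 1186 and 1368 CPM in the lines (log2 fold change -0.23, SE 0.12, adjusted p = 0.225).

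The other 2 clusters with most opposed calls alternated. On chromosome 3 (88213574 to 88459086) 3 peaks from 88318217 to 88341256 fell, with log2 fold changes between -1.08 and -0.78, and 3 peaks lying among them were not called. A peak at 88246484 to 88247153 fell as well, one at 88294596 to 88295416 rose by 0.66, and 2 further along rose by 1.51 and 1.17. On chromosome 16 (95864499 to 96119932) a peak that rose by 2.21 at 96048876 to 96049437 stood between 2 peaks that fell on either side (-0.96 and -0.75 before it, -1.36 and -1.51 after it), and 2 more rose at the start of the cluster. The sums were 752 ± 43.6 and 749.6 ± 49.9 CPM on chromosome 3 and 824 ± 69.1 and 844 ± 72.1 CPM on chromosome 16 in naive organoids and primary tumour lines (SD, n = 3 each), with log2 fold changes of -0.01 and 0.03.

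**Figure D5:**
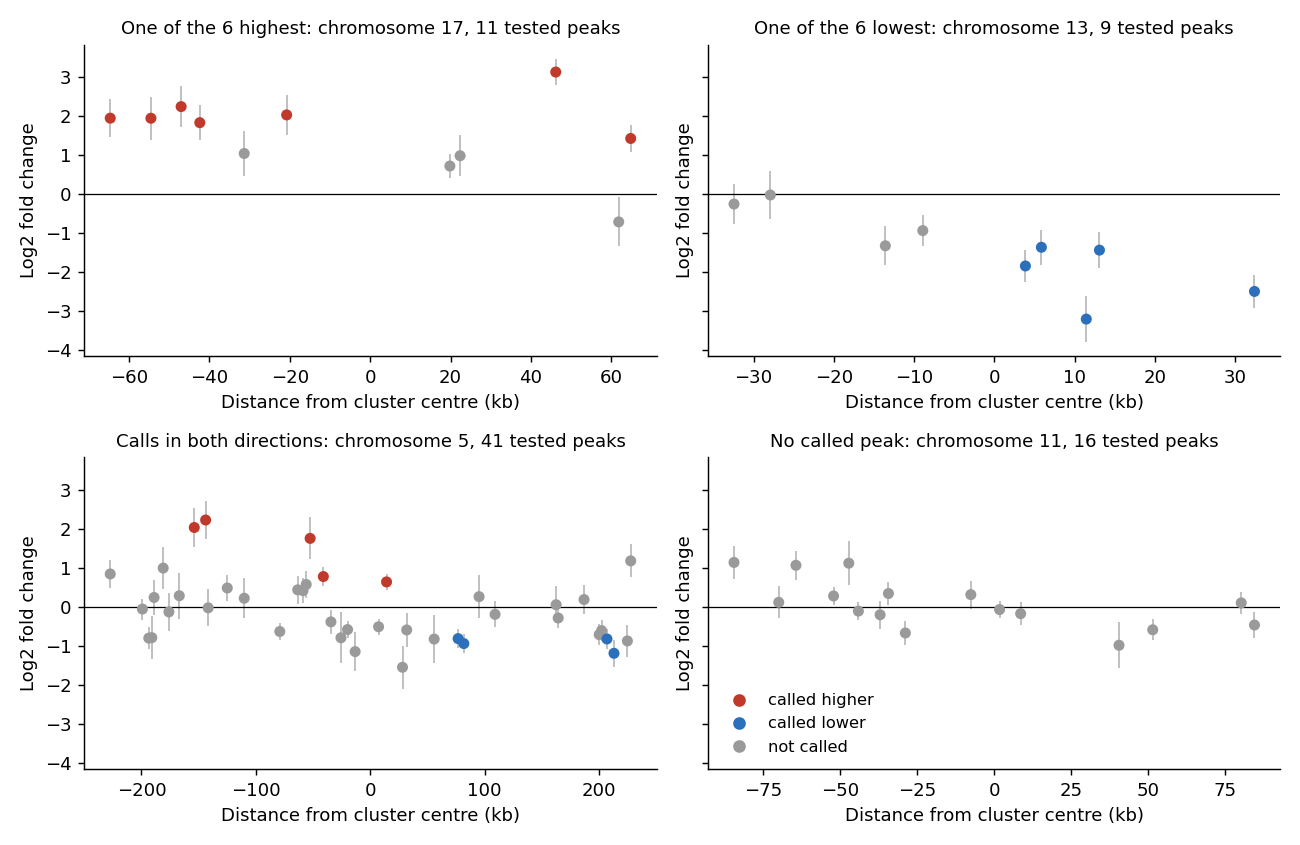
Log2 fold change of every tested dense peak (y axis, primary tumour minus naive, bars are SE) by its distance from the cluster centre in kb (x axis) in 4 clusters: on chromosome 17 with 7 gains, on chromosome 13 with 5 losses, on chromosome 5 with 5 gains left of 4 losses, and on chromosome 11 with no called peak. Red is called higher, blue called lower and grey not called.

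Among 314 pairs of successive dense peaks up to 50 kb apart that were both called, 16 had opposite directions, against 84 of 983 over the table. The number rested on single libraries and settings. It was 1 without naive replicate 2, 5 without naive replicate 3, 1 without primary tumour replicate 2, 10 without naive replicate 1 or primary tumour replicate 3, and 5 with the replicate number as a block. With a stricter count filter it was 26 and with an offset per library and 10 Mb window 25. The 3 closest were named after their values were seen. On chromosome 11, peaks at 98956244 to 98956884 and 98957699 to 98958154, 815 bp apart, had 17.7 ± 1.27 against 34.5 ± 4.54 CPM and 42.8 ± 9.19 against 18.8 ± 7.55 CPM in naive organoids and primary tumour lines (SD, n = 3 each). Their log2 fold changes were 0.96 and -1.24 (adjusted p = 0.0267 and 0.00826, edgeR). On chromosome 6, 1415 bp apart, a peak at 108484689 to 108485115 fell and its neighbour at 108486530 to 108487364 rose (log2 fold changes -0.96 and 1.24, adjusted p = 0.0273 and 0.00480). On chromosome 3 a peak at 104589363 to 104589669 fell from 19.7, 20.2 and 19.2 CPM to 3.42, 1.06 and 3.32 CPM, and its neighbour 1692 bp on, at 104591361 to 104592377, went from 17.2, 11.4 and 13.7 CPM to 19.96, 33.9 and 41.3 CPM (log2 fold changes -2.84 and 1.20, adjusted p = 2.69e-04 and 0.0192). In these 3 pairs the groups did not overlap at any of the 6 peaks. Both peaks kept their signs in all 15 other settings, but both calls in 9 settings on chromosome 11 and in 10 on chromosomes 6 and 3. None of the 3 pairs kept both calls with the block or without naive replicate 2, naive replicate 3 or primary tumour replicate 2.

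Clusters without any called peak were common: 749 of 1601 clusters with a tested dense peak had none. The 4 with at least 6 dense peaks and sums nearest to no change had log2 fold changes between -0.001 and 0.0001. The largest of them, on chromosome 11 (115187845 to 115357796, 16 dense peaks), had 468, 452 and 434 CPM in naive libraries and 418, 481 and 456 CPM in primary tumour lines, with single peaks between -0.98 and 1.15. On chromosome 7 (148547341 to 148655066, 13 dense peaks) the values were 487, 498 and 415 CPM and 466, 452 and 483 CPM. The other 2 lay on chromosome 1 (37970311 to 38055390) and chromosome 2 (83530684 to 83600050). A sum near 0 and the absence of calls do not show that no peak in these clusters differed.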

How the data were processed

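ATAC-seq was measured in 6 libraries, 3 naive and 3 primary tumour. Per the labels' protocols, 50000 cells went into each library, the transposase acted for 30 min at 37 °C, and sequencing gave 2 reads of 75 bases per fragment. The authors deposited raw read counts for 1 shared peak set, with an authors' score per peak that the labels do not define. The submitters' processing notes name Bowtie, Picard, SAMtools, MACS2, bedtools and the build mm9. Duplicate handling and any shift for the transposase offset are not given there; both can change counts. Starts and ends are as deposited.

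Counts were fitted in R 4.3.3 with edgeR 4.0.16 (filterByExpr, TMM factors from 0.922 to 1.05, robust quasi-likelihood F test, 2-sided, group as sole term, Benjamini-Hochberg over all tested features, called under 0.05). The filter removed 1249 of 12715 dense peaks and 28 of 1631 clusters. It can pass a peak through the group where it is high, so counts over tested peaks describe those peaks alone. SE were computed from fold change and F statistic. CPM use the TMM-scaled total of the tested peaks. Descriptions of neighbours used Python 3.11.15 and scipy 1.17.1, with a pseudocount of 1 CPM for deviations within groups. The fits were tested on simulated data.

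Members, cluster definition and gene lists were chosen with earlier results of these data known. The gene lists and sequences were not used, since the reference at hand is of another build. Named clusters had at least 4 dense peaks, an adjusted p under 0.05, groups that did not overlap and a mean summed count of at least 100 (6 highest, 6 lowest). Added to these were the 4 with most dense peaks, the 4 with most calls in the rarer direction, and the 4 of at least 6 peaks with no call and the smallest fold change. Named peaks had an adjusted p under 0.05, a log2 fold change of at least 1 in size, groups that did not overlap and a mean count of at least 20 (6 highest, 6 lowest). The peak with most others near it was added, with the first by position of 4 tied for the next place. Same-numbered libraries had deviation correlations of -0.24, -0.11 and 0.005, so the numbers were not taken to pair libraries.

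Alternatives were other scalings, filters, DESeq2 1.42.0, a replicate block, leaving out each library, offsets by signal (loess span 0.3) or 10 Mb window, 5 chromosomes left out, and other radii, neighbour numbers, scores and chain lengths.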

Additional observations from a re-analysis of the deposited data

How the results depend on the processing

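The 24 called peaks and clusters chosen by the naming rule kept direction and call in all 351 values over scalings, filters, DESeq2, offsets, the replicate block and libraries left out. None of the 12 that were not called gained a call in 178 values, but 8 of them, all with a log2 fold change of at most 0.23 in size, changed sign in 48 values, and no direction is read from them. This does not cover single peaks inside named clusters, which were not followed, or the 3 opposite pairs, which kept both calls in 9 or 10 of 15 settings. The libraries are those in which they were chosen, so this is no independent support. Depth limits single peaks most, since the median dense peak held 16 reads in the shallowest library.

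Leaving out 1 library gave 728 to 1777 dense peaks called (497 to 1057 higher, 231 to 720 lower), 185 to 331 clusters called (132 to 195 higher, 53 to 136 lower), 28 to 146 clusters with calls in both directions, 2215 to 5440 calls over all peaks, 61.4% to 62.2% of peaks with the sign of their surroundings, and a difference in read share of 1.12 to 1.56 percentage points. The lowest counts came without naive replicate 2. The cause was not tested. With a replicate block 437 dense peaks were called lower and 68 clusters had calls in both directions. The block left 712 dense peaks called higher, and in 0 of 6 libraries was the best match the library of the same number.

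Other definitions of a dense cluster change how many peaks qualify, and the counts moved with that. With neighbours within 25 kb, 413 dense peaks were called (258 higher, 155 lower) and 106 clusters (67 and 39). Within 100 kb the numbers were 3208 (1908 and 1300) and 541 (329 and 212). With 10 or more neighbours they were 423 (265 and 158) and 66 (47 and 19). The share of tested dense peaks that rose was 9.67%, 8.62% and 9.75% in these 3 settings.

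The share of peaks with the sign of their surroundings was 59.5% with an offset per library and 10 Mb window and 63.1% with neighbours within 10 kb, against 62.0%. Called pairs up to 50 kb apart had the same direction in 94.9%, and in 91.8% to 99.5% over the settings, which were added after the data were seen, as were those for clusters with calls in both directions and for calls over all peaks.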
